A study of Danio rerio with 6 samples.

Results

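The Rab GTPase genes of the zebrafish were followed between the surface epithelium of the gastrula and the remaining cells of such embryos. Members were the rows whose gene name is rab, a number and an optional lower-case suffix, without genes for Rab-interacting proteins such as the rab11fip genes. This gave 62 genes of 31953 in the files. Embryos of the strain Tg(krt18:krt18-GFP) carried a GFP-tagged keratin expressed from the krt18 promoter, and cells of both groups came from this strain at 6 hpf (hours after fertilisation). Cells were sorted into GFP-positive cells, labelled enveloping layer (EVL), and GFP-negative cells, labelled non-EVL, with 3 RNA libraries each. About 1500 embryos were dissociated together and 10000 GFP-positive cells were sorted, so the cells come from pooled embryos, and the number of GFP-negative cells is not stated. No label ties a library to a clutch or a sort of its own, so every p-value below rests on the spread between these libraries, and that spread may be technical.

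Rab GTPases are small switches that mark membrane compartments. In the GTP-bound form, loaded by exchange factors, they sit on a vesicle or organelle and recruit effectors such as tethers and motor proteins, and GTPase-activating proteins return them to the GDP-bound form. Each compartment has its own members: Rab1 and Rab6 act at the Golgi, Rab5 at early endosomes, Rab7 at late endosomes, Rab4 and Rab11 at recycling endosomes, and Rab25 belongs to the Rab11 subfamily and is known from mammals as a Rab of epithelial cells. These roles come mostly from mammals, and zebrafish often holds several copies of a mammalian Rab.

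Libraries had 32187658 to 46144557 reads in genes, and between 57 and 61 of the 62 Rab genes had at least 1 read in each. All 13 enveloping layer markers found in the files were higher in EVL cells, with a summed level of 711563 to 2311270.3 normalised reads (reads divided by a size factor of the library) against 39979.9 to 57297 in non-EVL cells. They include krt18, whose promoter and protein carry the GFP used for the sort, so its rise was fixed by the sort. The other 12 were all higher too, with sums of 520513 to 1689649 against 30043 to 44626. The highest of these sums was EVL replicate 1. The 3 markers of dorsal forerunner cells and endoderm (sox32, sox17 and foxj1a) were also higher in EVL libraries, with sums of 17320.0 to 26799 against 2266 to 4437, and their part in the Rab results was not tested. Of 5 germ cell markers 3 were lower in EVL cells, and the sums overlapped between the groups for neither germ cells (1711 to 3613 against 3766 to 7143) nor forerunner cells. For mesoderm 1 of 4 markers was lower, and for ectoderm and pluripotency 2 of 5. Of 3 tested yolk syncytial layer markers 0 were called (limma), with sums of 2683 to 6211 in EVL and 1280.0 to 2717 in non-EVL libraries. Most of each sum was gata5 (2646, 6108 and 3593 in EVL, 2680, 2031 and 1245 in non-EVL libraries). The markers mxtx1 and mxtx2 had at most 28.2 normalised reads in any library. Leukocyte markers were near 0 in every library, with sums of at most 31.6, and the macrophage gene mpeg1.1 was at 0 throughout.

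Among Rab genes a small group rose steeply in the surface epithelium, and most did not pass the test. The epithelial recycling genes rab25a and rab25b, the Rab11 gene rab11al and the Golgi genes rab6bb and rab1bb were higher in EVL cells, and 0 members were lower (limma on log2(value + 1), Benjamini-Hochberg adjusted p under 0.05 over all genes tested). Of the 62 members 56 reached the minimum for testing, 10 normalised reads or more in 3 or more libraries. The 5 higher genes were 8.93% of those tested, against 8.80% of all 15971 genes tested, so the share of higher genes in the family was near that of the whole transcriptome. Over all genes tested 0.676% were lower and 9.47% were called in either direction. The same 5 members, and 0 lower, were called by edgeR on the recovered reads, against 8.90% of all genes higher and 0.326% lower, and DESeq2 called 10 of 56 higher (17.9%, against 12.5% of all genes) and 0 lower (against 2.05%). At an unadjusted p under 0.05 in limma 12 members were higher (21.4%, against 15.8% of all genes) and 2 lower (3.57%, against 7.20%). The median log2 fold change (EVL over non-EVL) was 0.081 over the tested members and -0.057 over all tested genes. With libraries scaled to their size alone, the median over all tested genes moved to -0.36 and that of the members to -0.22. Of the 56 tested members the same 5 were then higher and 2, rab34a and rab43, were lower. Of all 15971 genes tested 1317 were higher and 1191 lower at this scaling. Over all genes the share of higher genes among those called went from 92.9% to 52.5%. In a mixed tissue such as the non-EVL sample, fewer cells of a type and less RNA per cell cannot be told apart.

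**Figure D1:**
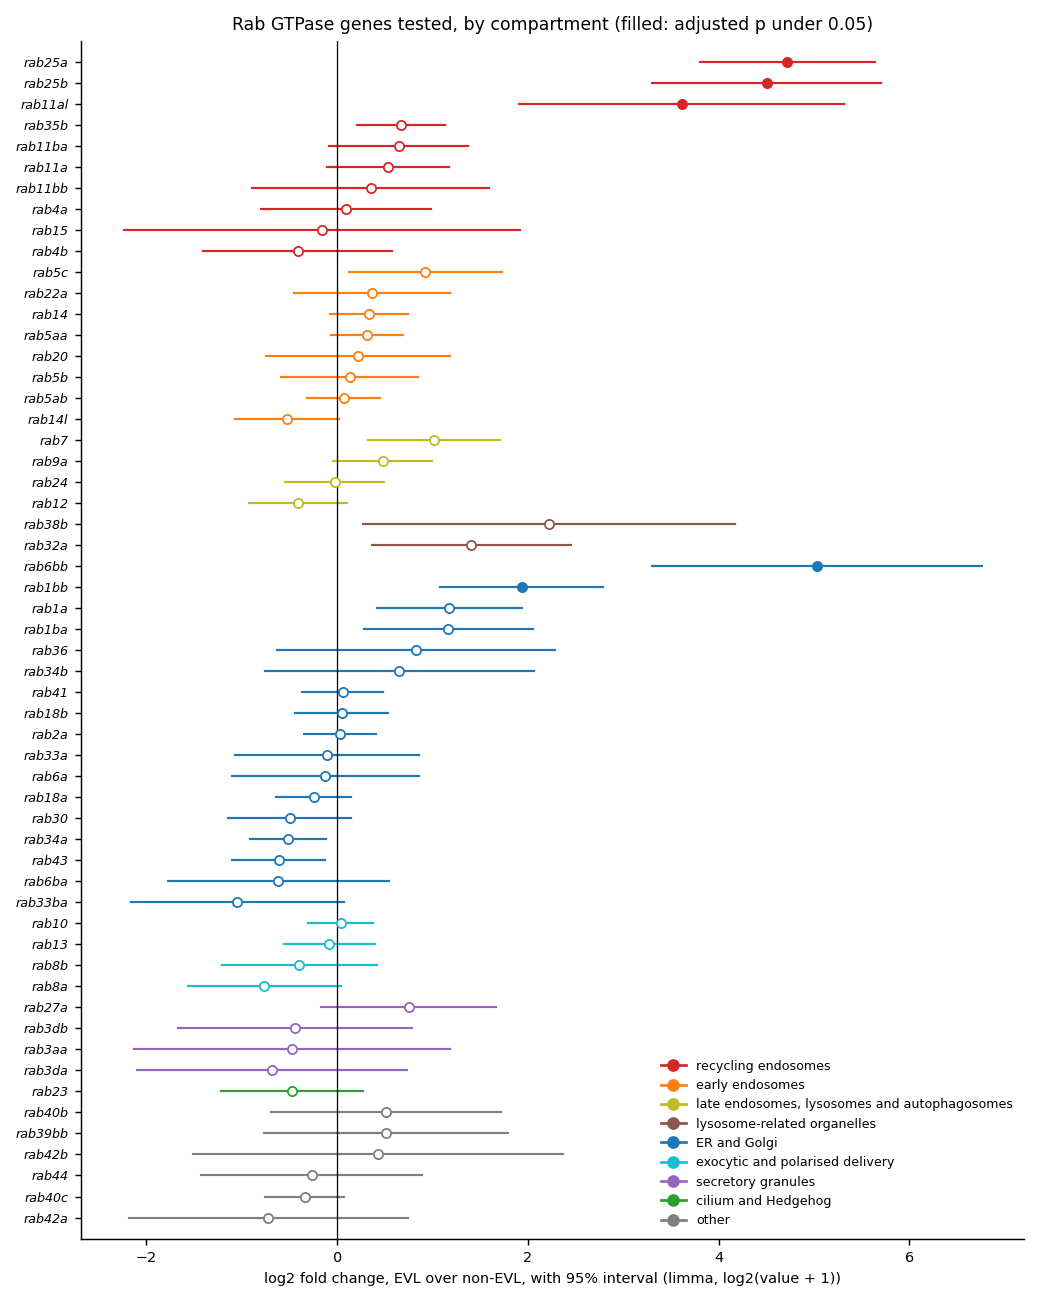
Log2 fold change, EVL over non-EVL, of the 56 tested Rab GTPase genes, grouped and coloured by compartment; lines are 95% intervals and filled points passed an adjusted p under 0.05 in limma. The 5 filled points are rab25a, rab25b and rab11al among recycling endosome genes and rab6bb and rab1bb among Golgi genes, and most other intervals cross 0.

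The 3 EVL and 3 non-EVL libraries did not overlap in 20 tested members (35.7%, against 30.9% of all genes tested). EVL lay above in 14 of them (25%, against 17.4%) and below in 6 (10.7%, against 13.5%). The 6 members under the minimum were rab3ab, rab3b, rab3c, rab9b, rab39ba and rab32b. None exceeded 20.3 normalised reads in any library, and rab32b had no read in any. Only rab38b, 1 of the 14 with EVL above, passed the minimum through its EVL libraries alone, so its place above was fixed by the minimum. With the minimum removed, 61 members entered the fit and the same 5 were higher.

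Of 10 tested recycling endosome genes 3 were higher and 0 lower in EVL cells (against 8.80% and 0.676% of all genes tested), with a median log2 fold change of 0.59, and both Rab25 genes were among the 3. In EVL replicates 1, 2 and 3, rab25a (ENSDARG00000058800) had 10783, 5295 and 3376 normalised reads, and in non-EVL replicates it had 168, 243 and 254. The lowest EVL library stood over 10 times above the highest non-EVL library. The rise was 26.4-fold (6484 ± 3844 against 221 ± 46.8, mean ± SD, n = 3 each; log2 fold change 4.72 with an SE of 0.399; adjusted p = 0.000647 in limma). Its copy rab25b (ENSDARG00000052954) rose as well. It had 690.2, 378 and 215 in EVL and 13.9, 11.02 and 26.1 in non-EVL libraries, a 22.7-fold rise (log2 fold change 4.504 with an SE of 0.52; limma, adjusted p = 0.00127). In both genes EVL replicate 1 was highest and replicate 3 lowest. Without EVL replicate 1 the log2 fold changes were 4.27 and 4.08, and both genes passed the threshold under all 18 alternatives.

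Rab11 proteins return internalised membrane to the cell surface and carry cargo to the apical side of epithelia. Only rab11al (ENSDARG00000014340) of the 4 Rab11 genes passed the threshold. Its EVL values were 1092, 165 and 144 normalised reads and its non-EVL values 27.8, 17.5 and 26.1. EVL replicate 1 was far above the other EVL libraries, and those were still above every non-EVL library. The log2 fold change of 3.61 (SE 0.74; 12.2-fold; limma, adjusted p = 0.0187) became 2.67 without that library (adjusted p = 0.00992). The call was lost without non-EVL replicate 2 or 3 (adjusted p = 0.0745 and 0.0593) and in limma-voom (adjusted p = 0.08003).

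The other Rab11 genes were expressed in both groups. rab11a had 1749, 950.0 and 1193 normalised reads in EVL and 658, 1028 and 961 in non-EVL libraries, and rab11ba had 2701, 1251 and 1450.4 against 1430.0, 898 and 1000.2. In each gene EVL replicate 1 was the highest library and the groups overlapped. Their log2 fold changes were 0.54 (95% interval -0.104 to 1.18; limma, adjusted p = 0.3002) and 0.64 (-0.082 to 1.37; adjusted p = 0.275). rab11bb was low, with 23.7, 67.5 and 30.5 against 40.8, 27.6 and 20.4, and its log2 fold change was 0.35 (limma, adjusted p = 0.7501). Reads of 50 nt could be shared between close copies, so values of single Rab11 or Rab25 genes are uncertain. The same holds for single Rab1 and Rab6 genes below.

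**Figure D2:**
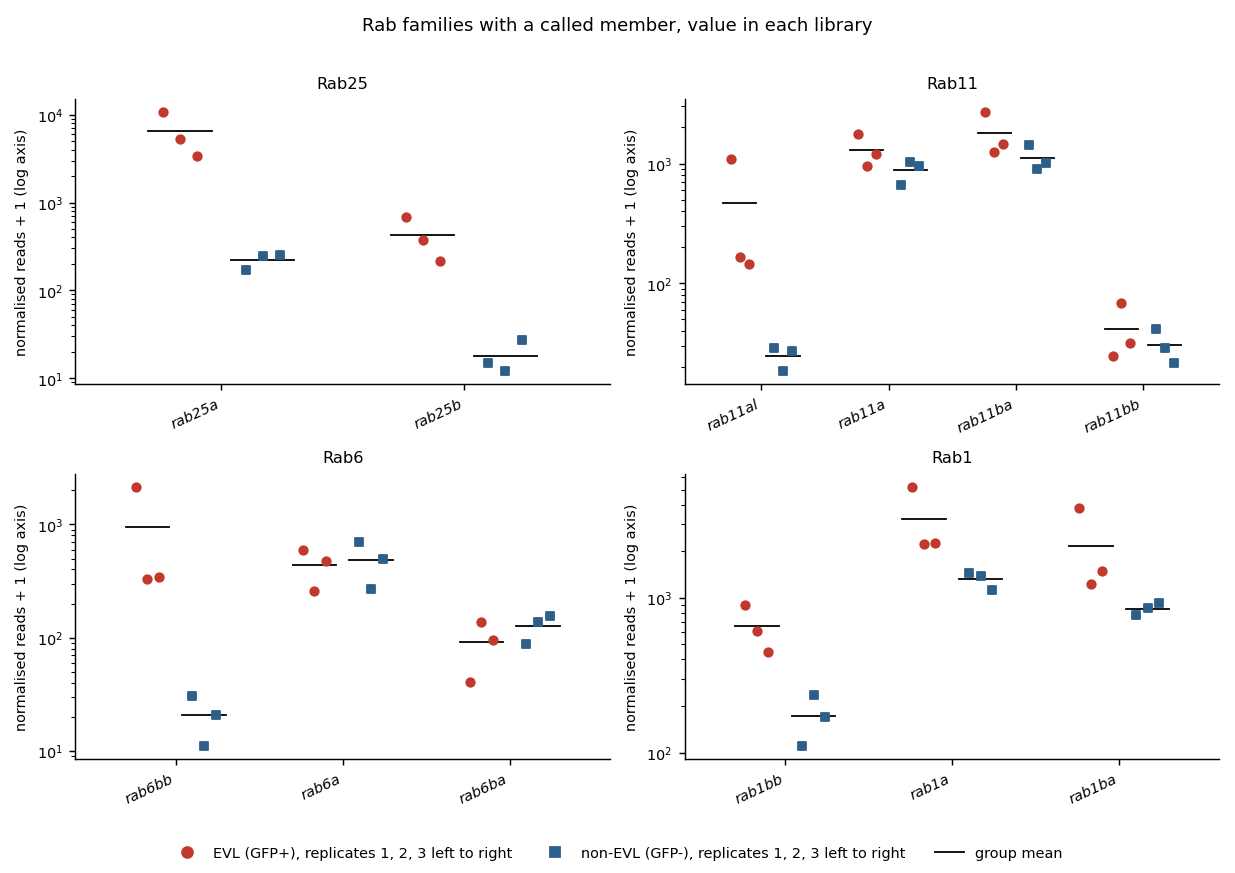
Normalised reads + 1 (log axis) in each of the 6 libraries for the 4 Rab families with a member higher in EVL cells; circles are EVL, squares non-EVL, ordered by replicate number within a group, and bars are group means. In Rab25 both genes separate, while in Rab11 and Rab6 rab11al and rab6bb separate and the remaining members overlap between groups.

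Of the remaining recycling genes, rab35b, a Rab of rapid recycling, had 1403, 1169 and 1216 normalised reads in EVL and 652, 799 and 942 in non-EVL libraries. Its groups did not overlap, but the log2 fold change of 0.67 (95% interval 0.21 to 1.14) missed the threshold (limma, adjusted p = 0.08202) and passed it in DESeq2 (adjusted p = 0.0334). The rapid recycling genes rab4a and rab4b stood at 0.093 and -0.41 with wide intervals (-0.802 to 0.99 and -1.41 to 0.58), and rab15 was low in all libraries, at 35.6, 8.86 and 11.3 against 4.34, 26.6 and 40.9.

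Some effectors of recycling and exocytosis were higher in EVL cells, at a share near that of all genes tested. The motor gene myo5b, which encodes the myosin that carries Rab11 vesicles along actin, had 4304, 1797 and 1501 normalised reads in EVL and 59.9, 68.9 and 108 in non-EVL libraries. The groups were far apart, at 29.3-fold (log2 fold change 4.87 with an SE of 0.42; limma, adjusted p = 0.000647). The Rab11-binding adaptor rab11fip4b had 244, 83.04 and 129 against 6.95, 10.1 and 12.7 (log2 fold change 3.702, adjusted p = 0.00296 in limma). It would not have reached the minimum for testing without its EVL libraries. A second adaptor, rab11fip5a, had 551, 106 and 94.7 against 13.9, 15.6 and 28.9 (log2 fold change 3.19; limma, adjusted p = 0.0249). EVL replicate 1 was the high library in rab11fip5a as it was in rab11al, and without it the log2 fold change of rab11fip5a was 2.38. That call was lost without non-EVL replicate 1 or 2 (adjusted p = 0.06602 and 0.0909) and in limma-voom (adjusted p = 0.0799). In limma these 3 were the only higher genes among 33 tested effectors of recycling and exocytosis (9.09%, against 8.80% of all genes), 0 were lower, and the median log2 fold change of that list was 0.19. In edgeR the adaptor gene rab11fip3 was higher too, at 79.03, 198 and 80.1 against 34.8, 33.1 and 28.2 (log2 fold change 1.73 and adjusted p = 0.0543 in limma; adjusted p = 0.04497 in edgeR). The endosomal tubule genes ehd1a and ehd1b, the uncalled members of highest level, stood at 0.52 and -0.58 (limma, adjusted p = 0.404 and 0.329).

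Read shares give the make-up of the Rab transcripts in each library. Reads in all 62 genes were 0.159%, 0.114% and 0.114% of all reads in EVL replicates 1, 2 and 3, and 0.124%, 0.118% and 0.122% in non-EVL replicates. The most abundant gene took 34.5% to 42.7% of all reads in EVL and 30.1% to 34.97% in non-EVL libraries. Outside that gene the Rab share was 0.243%, 0.1996% and 0.191% in EVL and 0.177%, 0.182% and 0.186% in non-EVL replicates. On that measure every EVL library lay above every non-EVL library. Within the Rab reads, rab25a and rab25b together took 16.98%, 11.7% and 8.06% in EVL libraries and 0.461%, 0.601% and 0.702% in non-EVL libraries. All recycling endosome genes took 28.1%, 20.3% and 18.1% against 8.61%, 9.06% and 9.82%. Golgi and endoplasmic reticulum genes took 38.03% ± 1.498 of Rab reads in EVL and 45.01% ± 1.29 in non-EVL libraries (mean ± SD, n = 3 each). The gene named rab43, whose identifier has the symbol of another gene in the symbol table, took 6.28% ± 2.53 against 11.7% ± 0.602 of Rab reads, and with it left out of the Rab reads the Golgi and endoplasmic reticulum shares were 33.8% ± 2.22 and 37.7% ± 1.88. Genes of exocytic delivery took 9.46% ± 2.36 against 12.2% ± 0.5704. The shares of early endosome genes (21.2% ± 1.48 against 22.8% ± 0.781) and late endosome genes (4.32% ± 0.0788 against 4.205% ± 0.389) lay closer together. Shares within a library add up to a fixed total, so a larger share of Rab25 makes the sum of all other shares smaller. Reads were not divided by transcript length. On the normalised scale the sum over all members was 67552, 48508 and 44575 in EVL libraries against 39417, 42196 and 39842 in non-EVL libraries. Without the 5 higher genes it was 51927, 41726 and 40056 against 39069, 41681 and 39346, where the groups overlapped and EVL replicate 1 stood above the rest. Those 5 genes were chosen by their calls on these same libraries, so a smaller difference without them was fixed in advance.

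**Figure D3:**
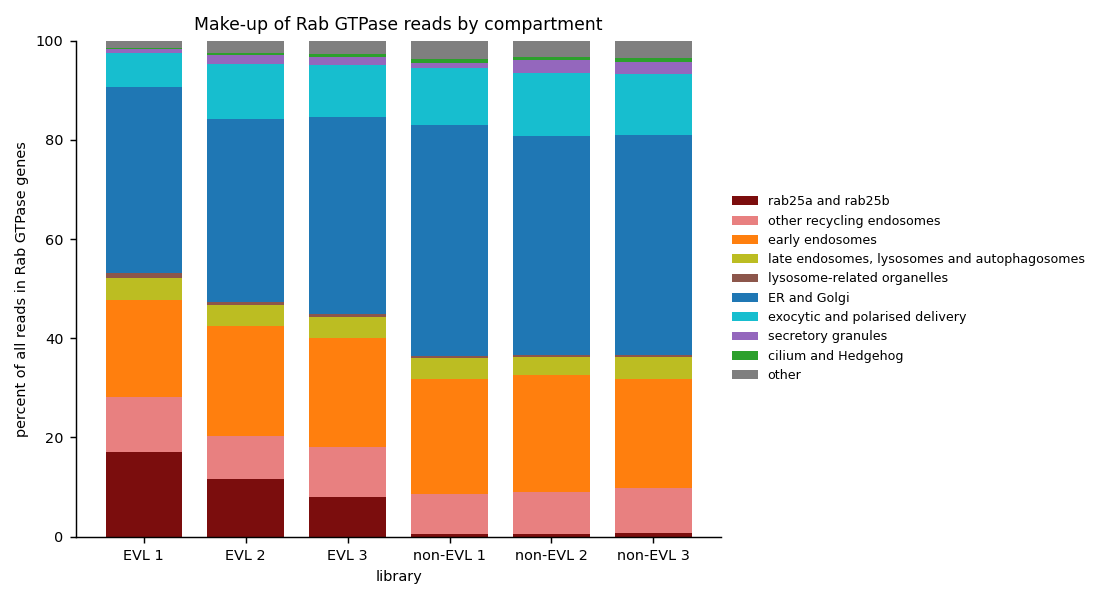
Share of all Rab GTPase reads, in percent, taken by each compartment in each of the 6 libraries, with rab25a and rab25b drawn apart from the other recycling endosome genes. The Rab25 part is 8.06% to 16.98% in the EVL bars and under 1% in the non-EVL bars.

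Among the 17 Golgi and endoplasmic reticulum genes, all tested, rab6bb and rab1bb were higher and 0 were lower (11.8%, against 8.80% of all genes higher). Rab6 proteins direct retrograde traffic at the Golgi, and RAB6B, the mammalian counterpart of rab6bb, is best known from neurons. rab6bb (ENSDARG00000031343) had 2156, 331 and 341 normalised reads in EVL and 29.5, 10.1 and 19.7 in non-EVL libraries. All EVL libraries lay over 10 times above the non-EVL libraries, with EVL replicate 1 over 6 times the other EVL libraries. The fitted rise of 32.6-fold (log2 fold change 5.03 with an SE of 0.75; limma, adjusted p = 0.00415) was the largest of any member and fell to a log2 fold change of 4.14 without EVL replicate 1, with adjusted p = 0.00311. The related rab6a and rab6ba overlapped between groups, at 593, 256 and 475 against 698, 269 and 495 and 39.5, 137 and 93.6 against 87.7, 136 and 156. Their log2 fold changes were -0.12 and -0.62 (limma, adjusted p = 0.898 and 0.519).

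Rab1 proteins drive transport from the endoplasmic reticulum to the Golgi, the first step of secretion. rab1bb (ENSDARG00000056479) had 904, 613 and 443 normalised reads in EVL and 109, 233 and 169.9 in non-EVL libraries, a 3.82-fold rise (log2 fold change 1.93 with an SE of 0.37; limma, adjusted p = 0.01399). The call was lost without EVL replicate 2 (adjusted p = 0.0535) and without non-EVL replicate 3 (adjusted p = 0.0501), at log2 fold changes of 1.95 and 1.96. The other Rab1 genes of the name pattern, rab1a and rab1ba, also lay above in every EVL library. rab1a had 5237, 2218 and 2244 against 1457, 1384 and 1119, and rab1ba had 3783, 1230.1 and 1493 against 769.7, 856 and 930.4. Both missed the threshold, at log2 fold changes of 1.18 (95% interval 0.42 to 1.94; limma, adjusted p = 0.0674) and 1.17 (0.28 to 2.05; adjusted p = 0.113). Both passed it in DESeq2 (adjusted p = 0.00871 and 0.0184), and rab1a also without EVL replicate 1 (adjusted p = 0.0495) at a smaller log2 fold change of 0.77 and with the replicate number as a block (adjusted p = 0.0289). A further Rab1 row outside the name pattern, RAB1A (2 of 2), leaned the other way, at 132, 218 and 164 against 214, 266 and 262 with overlapping groups (log2 fold change -0.55; limma, adjusted p = 0.313). The identifier named rab1a in the files carries the symbol RAB1B in the symbol table, so which Rab1 it is remains uncertain.

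No other Golgi gene passed the threshold. rab2a, which acts between the Golgi and the endoplasmic reticulum, had 5386, 4105 and 4291 normalised reads in EVL and 4735, 4578 and 4115 in non-EVL libraries, with a log2 fold change of 0.030 and a 95% interval of -0.34 to 0.403 (limma, adjusted p = 0.933). The interval of rab41 (-0.36 to 0.48) and those of the lipid droplet genes rab18a (-0.64 to 0.15) and rab18b (-0.44 to 0.53) also stayed within a 2-fold change. rab34a and the gene named rab43 lay below in all EVL libraries. rab43 had 2296, 3940.4 and 3265 against 4343, 5125 and 4760.4 (log2 fold change -0.61; limma, adjusted p = 0.129), and rab34a had 1343, 1687 and 1488 against 2165, 2409 and 1895 (log2 fold change -0.52; adjusted p = 0.117). These were the 2 members called lower with scaling by library size alone. The identifier of rab43 is given the symbol ISY1, a splicing gene, in the symbol table, so its reads may not come from a Rab gene. The lowest fitted value of any member was that of rab33ba, at -1.05 with overlapping groups (48.7, 25.5 and 42.9 against 111, 45.02 and 97.3; limma, adjusted p = 0.248).

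The 5 higher genes can be set against their own family members within each library, where the scaling of the libraries nearly cancels. The log2 ratio of rab25a to rab25b was 3.96, 3.81 and 3.96 in EVL and 3.501, 4.34 and 3.23 in non-EVL replicates 1, 2 and 3, and overlapped between groups (difference 0.22). The log2 ratio of rab6bb to rab6a was 1.86, 0.37 and -0.48 against -4.52, -4.605 and -4.58, and did not overlap. Against rab6ba the ratio of rab6bb differed by 5.64 between groups. The ratio of rab11al to rab11a, rab11ba and rab11bb differed by 3.08, 2.97 and 3.26, also without overlap. The ratio of rab1bb to rab1a differed by 0.76, without overlap, and that of rab1bb to rab1ba by 0.77, with overlap. The 5 genes were chosen by their calls on these same libraries and most of their relatives were not called, so the separation of the ratios restates those calls and no test is given. These are differences of log2 ratios on the log2(value + 1) scale, and the level of 1 gene against another is not read from them, since transcript lengths were not used.

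Early endosome genes showed no member past the threshold among 8 tested, where 9.47% of all genes tested passed it in either direction. Their median log2 fold change was 0.27. Of the Rab5 genes, which control fusion of early endosomes, rab5aa had 5099.8, 4206 and 4015 normalised reads in EVL and 3167, 3926 and 3594 in non-EVL libraries. The groups just failed to overlap, and the log2 fold change was 0.32 (95% interval -0.063 to 0.69; limma, adjusted p = 0.303). rab5ab had 1997, 2025 and 1711 against 1941, 1954 and 1583 (log2 fold change 0.068, interval -0.32 to 0.45), and overlapped. rab5c differed more, at 1836, 785 and 771 against 619, 465 and 562. Its groups did not overlap, but the value leaned on EVL replicate 1 and missed the threshold (log2 fold change 0.93; limma, adjusted p = 0.157). rab14, which acts between the trans-Golgi and endosomes, had 3257, 2706 and 2304 against 2306, 2256 and 1958 (log2 fold change 0.33; limma, adjusted p = 0.318), while its relative rab14l lay below in all EVL libraries (336, 487 and 526 against 665, 638 and 605; log2 fold change -0.52; adjusted p = 0.234). The phagosome gene rab20 and the early endosome gene rab22a were low and overlapped, at 0.22 and 0.36.

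Along the degradative route, rab7, the Rab of late endosomes and lysosomes, had 1586, 846 and 721 normalised reads in EVL and 486, 496 and 483 in non-EVL libraries. The non-EVL libraries lay close together and every EVL library was above them. The log2 fold change of 1.02 (SE 0.300; 95% interval 0.33 to 1.71) missed the threshold (limma, adjusted p = 0.0799) and passed it in DESeq2 (adjusted p = 0.0136). rab9a, which returns receptors from late endosomes to the Golgi, had 702, 523 and 519.9 against 394, 384 and 465 (log2 fold change 0.48; limma, adjusted p = 0.257). rab12 lay below in all EVL libraries, at 277, 262 and 262 against 354, 338 and 376 (log2 fold change -0.41; adjusted p = 0.3202), and the autophagosome gene rab24 overlapped, with a log2 fold change of -0.028 and an interval of -0.55 to 0.49. Of genes for lysosome-related organelles, such as the melanosome, rab32a had 778, 255 and 240.2 against 137, 137 and 134. EVL replicate 1 was over 3 times the other EVL libraries, all of which were above the non-EVL libraries (log2 fold change 1.41; limma, adjusted p = 0.106; DESeq2, adjusted p = 0.00921). rab38b was low, at 23.7, 37.6 and 16.9 against 8.69, 9.19 and 0.705 (log2 fold change 2.22). It was not called, and no p-value is given, since it passed the minimum for testing through its EVL libraries alone.

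None of the 4 tested genes for delivery to the plasma membrane passed the threshold (against 9.47% of all genes tested). rab10 had 3988, 4669 and 4045 normalised reads in EVL and 3821, 4500.0 and 4069.7 in non-EVL libraries, with a log2 fold change of 0.035 and a 95% interval of -0.31 to 0.38 (limma, adjusted p = 0.915). rab13, known in mammals for delivery of tight junction proteins, had 407, 429.6 and 468 against 456, 427 and 499 (log2 fold change -0.083, interval -0.56 to 0.396; limma, adjusted p = 0.856). rab8a and rab8b, which act in apical and ciliary delivery, stood at -0.76 and -0.397 (limma, adjusted p = 0.2401 and 0.5600), with 122, 216 and 126 against 185, 288 and 308 for rab8a. In rab8b the EVL libraries, at 44.8, 57.6 and 63.2, lay below the non-EVL libraries, at 70.4, 79.9 and 66.96.

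None of the 4 tested secretory granule genes passed the threshold (against 9.47% of all genes tested). rab3da had 65.9, 254 and 138 normalised reads in EVL and 96.4, 351 and 284 in non-EVL libraries, and rab3db had 166, 302 and 297 against 145, 635 and 407. In both genes replicate 1 was the lowest library of each group. Their log2 fold changes were -0.68 and -0.44 (limma, adjusted p = 0.564 and 0.674), and the intervals of -2.104 to 0.74 and -1.67 to 0.78 leave a fall of over 2-fold possible. rab27a, which acts in docking of secretory and lysosome-related organelles, had 291, 147 and 148 against 152, 79.01 and 109 (log2 fold change 0.75; limma, adjusted p = 0.312). rab23, a negative regulator of Hedgehog signalling, had 155, 223 and 320.3 against 317, 262 and 357 (log2 fold change -0.47; limma, adjusted p = 0.439). The ubiquitin ligase adaptor rab40c lay below in all EVL libraries, at 835, 1095 and 1083 against 1313, 1239 and 1239 (log2 fold change -0.34; limma, adjusted p = 0.311), while rab40b overlapped (0.51; adjusted p = 0.615) and rab42a had at most 67.7 normalised reads (-0.72; adjusted p = 0.556).

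**Figure D4:**
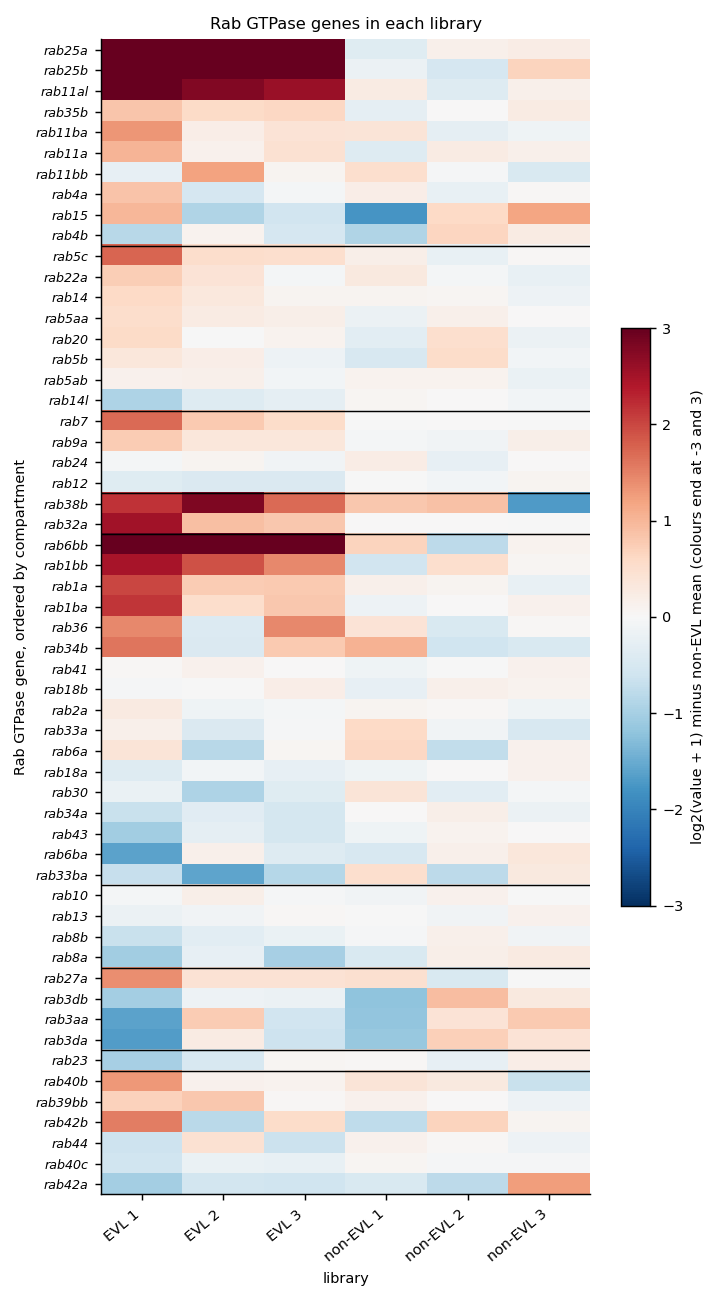
Log2(value + 1) of each tested Rab GTPase gene in each library minus the mean of the 3 non-EVL libraries, rows grouped by compartment and colours ending at -3 and 3. The 5 higher genes are red in all 3 EVL columns, and the EVL 1 column is the reddest in most of the other rows that lean upward, such as rab1a, rab5c, rab7 and rab32a.

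EVL replicate 1 was the highest of the EVL libraries in 31 of 56 tested members (55.4%, against 41.6% of all genes tested), including all 5 higher genes. Its median ratio to EVL replicate 2 was 1.21 over the members and 1.05 over all tested genes. The same library had 2311270.3 normalised reads in enveloping layer markers, against 1018959 and 711563 in EVL replicates 2 and 3, and the lowest sum of mesoderm markers, 27728 against 52149 and 51240.2. Its sums were also the lowest of the EVL libraries for germ cells (1711), yolk syncytial layer (2683), forerunner cells and endoderm (17320), and ectoderm and pluripotency (27568). Among ectoderm and pluripotency markers pou5f3, nanog and sox3 were lowest in replicate 1 of both groups, and sox2 and sox19b were not. Whether the make-up of the sorted cells, or a difference shared by replicate 1 of both groups, sets the Rab levels of EVL replicate 1 was not tested.

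Genes of the machinery that loads, recycles and switches off Rab proteins were called higher in limma at a share near that of all genes tested. Of 165 tested regulators and effectors 13 were higher (7.88%, against 8.80% of all genes) and 0 lower (against 0.676%) in EVL cells. Their median log2 fold change was 0.19, against -0.057 over all tested genes. At an unadjusted p under 0.05 in limma 39 were higher and 4 lower, where 15.8% and 7.20% of all genes were. The lower count was 0 in edgeR (against 0.326% of all genes) and 2 in DESeq2 (against 2.05%). None of 9 genes of the membrane cycle, which prenylate Rab proteins or extract them from membranes, passed the threshold (against 9.47% of all genes tested). The most abundant were rabac1, a Rab acceptor of the Golgi, with 9978, 6037 and 3968 against 3023, 3196 and 2737 normalised reads (log2 fold change 1.06; limma, adjusted p = 0.0723), and gdi2, which extracts GDP-bound Rabs, with 6513, 4525 and 5364 against 3301, 4053 and 3837 (log2 fold change 0.54; adjusted p = 0.115). Both lay above in all EVL libraries.

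Of 40 tested exchange factors 1 was higher (2.5%, against 8.80% of all genes tested) and 0 lower. This was DENND1C of the DENN domain family, at 28.98, 35.4 and 16.9 normalised reads in EVL and 0 in each non-EVL library. It passed the minimum for testing through its EVL libraries alone, so its call could go only this way. Among the other 12 of the 13 higher genes, rab11fip4b (6.95, 10.1 and 12.7 in non-EVL libraries) also needed EVL libraries to reach the minimum. The rest were above the minimum value in every non-EVL library. The EVL mean of DENND1C was 33.1 times a limit of 3 reads over the 3 non-EVL libraries. This ratio leaves out the spread between the EVL libraries and is not a lower bound of the rise. The uncalled exchange factors of highest level were ccz1, part of the Rab7 activator, at 0.34 (limma, adjusted p = 0.473), and dennd5b, at -1.002 (adjusted p = 0.0854). Of 33 GTPase-activating proteins 4 were higher (12.1%, against 8.80% of all genes tested) and 0 lower (against 0.676%). The largest rise was that of rabgap1l2, with 3368, 4395 and 2308 against 55.6, 262 and 203 (log2 fold change 4.49 with an SE of 0.55; limma, adjusted p = 0.00158), which was 3.81 without non-EVL replicate 1. The others were tbc1d9 (2.02), tbc1d17 (1.65) and the gene named si:ch211-87l2.1 (1.32), for which the symbol table gives tbc1d10aa. In limma tbc1d9 lost its call without each library except non-EVL replicate 3 (adjusted p from 0.05902 to 0.128), and it was not called in edgeR (adjusted p = 0.0642). The call of tbc1d17 was lost when any 1 of the 3 non-EVL libraries was left out (limma, adjusted p from 0.0544 to 0.1001). That of si:ch211-87l2.1 was lost without EVL replicate 2 or non-EVL replicate 2 (limma, adjusted p = 0.0528 and 0.0589). tbc1d5 and evi5b, the uncalled genes of highest level, stood at -0.38 and -0.32 (limma, adjusted p = 0.5404 and 0.571).

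Effectors of endosomal and lysosomal Rabs were higher in 4 of 30 (13.3%, against 8.80% of all genes tested). In this list 0 were lower (against 0.676%), and the median log2 fold change was 0.060. PLIN3, which coats lipid droplets and binds Rab9 in human cells, had 2774, 1058 and 695 against 46.05, 59.7 and 55.7 normalised reads (log2 fold change 4.54 with an SE of 0.48; limma, adjusted p = 0.000895). The Rab-binding phosphatase gene inpp5b had 1927, 603 and 429 against 138, 62.5 and 89.5 (log2 fold change 3.097; limma, adjusted p = 0.0107), or 2.46 without EVL replicate 1. The rabaptin gene rabep2 rose by 1.98 on the log2 scale (limma, adjusted p = 0.00653). The Rab7-binding lipid sensor gene osbpl1a rose by 2.096 (adjusted p = 0.0273), a call lost without EVL replicate 1 or 2 or non-EVL replicate 2 or 3 (adjusted p up to 0.101). In edgeR rilpl2 was higher too (adjusted p = 0.0498), at a log2 fold change of 1.13 and adjusted p = 0.0661 in limma. The retromer gene vps35 and the sorting nexin gene snx3 stood at -0.14 and 0.21 (limma, adjusted p = 0.759 and 0.711). Of 20 Golgi effectors 1 was higher in limma (5%, against 8.80% of all genes tested) and 0 were lower. Their median log2 fold change was 0.34. The EVL libraries lay above in 9 (45%, against 17.4% of all genes) and below in 1 (5%, against 13.5%). At an unadjusted p under 0.05 in limma 8 were higher and 1 lower, where 15.8% and 7.20% of all genes were. The called gene was golgb1, which encodes the tether giantin, with 9478, 6029.7 and 4879 against 3344, 3241 and 3700.4 (log2 fold change 0.93, adjusted p = 0.0491 in limma). It lost that call without each library except EVL replicate 3 (adjusted p from 0.05601 to 0.167) and under every other scaling tried in limma, in limma-voom and with a pseudocount of 0.5 (adjusted p = 0.0509). In edgeR the tether gene golga2 was higher too, at 2177, 1216 and 788 against 430.0, 530.1 and 584 (log2 fold change 1.32 and adjusted p = 0.0565 in limma; adjusted p = 0.0435 in edgeR). The Golgi stacking gene gorasp2 stood at 1.12 and the kinesin gene kif20a at -0.63 (limma, adjusted p = 0.0706 and 0.147).

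**Figure D5:**
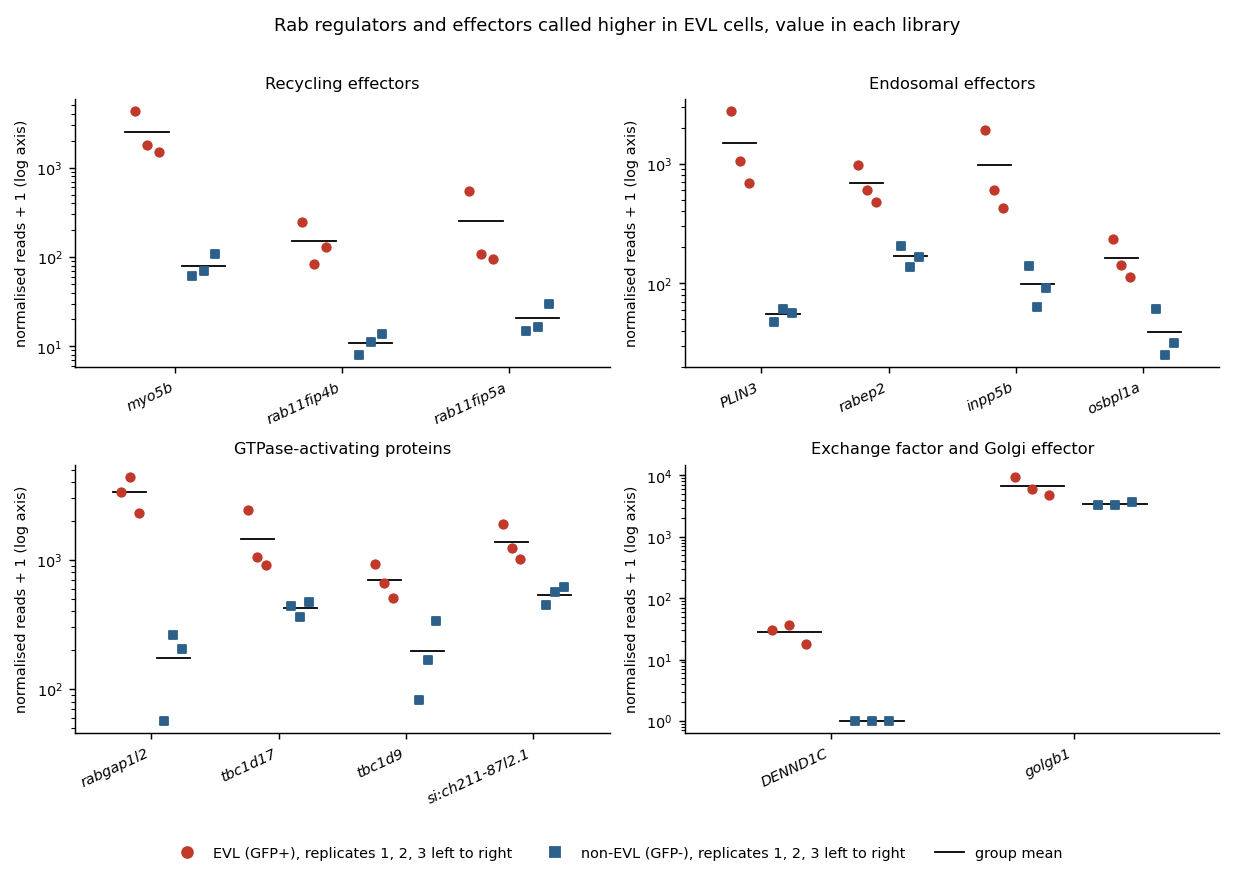
Normalised reads + 1 (log axis) in each library for the 13 Rab regulators and effectors higher in EVL cells; circles are EVL, squares non-EVL, ordered by replicate number within a group, and bars are group means. Every EVL library lies above every non-EVL library in each of the 13 genes, and DENND1C has no read in the non-EVL libraries. The 13 genes were chosen by their calls on these same libraries, so their separation restates those calls. That of DENND1C was fixed by the minimum for testing.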

How the data were processed

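RNA of sorted cells was amplified with SMARTseq2 and sequenced as single-end reads of 50 nt, per the labels. The authors deposited 1 normalised signal value per gene and library; the values are reads divided by a factor that equals the DESeq2 size factor recomputed from the recovered reads. Per the submitters' processing notes, Trim Galore, STAR 2.6.1d, danRer10, featureCounts and DESeq2 were used. The sources used here give neither the annotation release nor how multiply matching reads were handled. SMARTseq2 carries no strand and no molecular identifiers, so antisense neighbours and close copies are uncertain.

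Whole reads were recovered from the step size of each library (100% of values whole, tolerance 0.01 read). Genes reaching 10 in 3 or more libraries, 15971 of 31953, were tested with limma 3.58.1 (R 4.3.3) on log2(value + 1), without covariates, with a variance trend and robust shrinkage, and Benjamini-Hochberg adjusted p under 0.05 over all of them made a call. The added 1 understates changes of low genes. The count test on the recovered reads (edgeR 4.0.16, TMM) called 1422 genes higher and 52 lower. Other alternatives were DESeq2 1.42.0, limma-voom, other scalings, pseudocounts and minimums, the replicate block, and leaving out each library. The fits were run on simulated libraries with as many planted rises as falls, unlike these data, and no result here rests on that run.

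Members, compartments, the 6 lists of regulators and effectors (196 names, 184 matched) and the naming rule were chosen with earlier results of these data known. The rule named called members and their family, members with a log2 fold change of at least 1 whose groups did not overlap, the 3 uncalled members of highest value per compartment, up to 4 called genes per direction and 2 uncalled genes per list, and the markers. Other members (such as rab4a, rab4b, rab5c, rab8b, rab12, rab14l, rab15, rab18a, rab18b, rab20, rab22a, rab33ba, rab34a and rab41) and rab11fip3, golga2 and rilpl2 were named after their values were seen. Of the 62 members 60 had an entry in the symbol table.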

Additional observations from a re-analysis of the deposited data

How the results depend on the processing

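Over 18 alternatives, the count of higher Rab genes was 5 except 10 in DESeq2 (adding rab1a, rab1ba, rab7, rab32a and rab35b), 4 in limma-voom, 6 with the replicate block (adding rab1a) and 3 to 6 with a library left out (3 without non-EVL replicate 3). rab25a, rab25b and rab6bb were called in each. Over all genes 1405 were higher in the main fit, 1994 in DESeq2, 1184 in limma-voom and 1573 with the replicate block. Without non-EVL replicate 3 it was 1059. In each of these fits 56 members and 15971 genes were tested. The count of lower Rab genes was 0 except 2 with library size alone, where 1191 of all genes were lower. Counting the 19 Rab rows that the name pattern misses left 5 higher and 0 lower (7.35% of those tested higher, against 8.80% of all genes). In the Rab pool composition, the difference in the Rab25 share of Rab reads, 11.7 percentage points, was 9.29 to 13.8 with a library left out and 12.3 with rab43 left out of the Rab reads, an alternative chosen after seeing the data.

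For regulators and effectors, 13 of the 165 tested were higher, and 7 to 15 with a library left out. The 7 were without non-EVL replicate 2, where 1009 of all 15971 genes tested were higher. In DESeq2 28 of the 165 were higher, where 12.5% of all genes were. The lower count of 0 became 4 with library size alone, 2 in DESeq2, 2 with the replicate block (19 higher) and 0 to 1 with a library left out. Over all 15971 genes tested the 1405 higher were 995 to 1304 with a library left out. The 108 lower became 1191 with library size alone, 269 with upper quartile scaling, 173 with library size without the most abundant gene, 52 and 70 in edgeR with TMM and with DESeq2 size factors, 327 in DESeq2, 41 in limma-voom, 279 with the replicate block (1573 higher) and 14 to 77 with a library left out. The cause was not tested. Upper quartile scaling and library size without the most abundant gene moved the median log2 fold change of all genes to -0.23 and -0.22.

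The same-numbered libraries of the groups had deviations that correlated at 0.26, 0.33 and 0.075 for replicates 1, 2 and 3. Each library correlated best with its own number, but the labels give no shared source, so the block is an alternative only. Rab shares per transcript length were not run, since transcript lengths were not used here.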

Other observations

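The gene name pattern leaves out 19 Rab rows: 15 with names in capitals and 4 with clone names to which the symbol table gives a Rab symbol. Of these 12 were tested and 0 were called in limma (against 9.47% of all genes tested). The groups did not overlap in 5 of the 12 (41.7%, against 30.9% of all genes tested). RAB42 (2 of 3), 1 of these 5, passed the minimum through its EVL libraries alone, so its place above was fixed by the minimum. RAB21, an early endosome Rab that takes part in integrin uptake in mammals, had 539, 335 and 400.4 normalised reads in EVL and 171, 245 and 180.4 in non-EVL libraries, without overlap, and just missed the threshold (log2 fold change 1.08, SE 0.29; limma, adjusted p = 0.0537), while edgeR called it (adjusted p = 0.0451; higher in 3 of 3 EVL libraries). RAB42 (2 of 3) had no read in 2 of 3 non-EVL libraries, at 75.1, 15.5 and 15.8 against 0, 4.59 and 0; it passed the minimum for testing through its EVL libraries alone, so no test is given, and its relatives rab42a and rab42b did not separate (-0.72 and 0.43).

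Beside rab7, the symbol table gives RAB7A to a pair of clone-named genes. zgc:100918 had 923, 1339 and 1074 normalised reads in EVL and 738, 1518 and 1332 in non-EVL libraries, and overlapped (log2 fold change -0.057; 95% interval -0.73 to 0.62; limma, adjusted p = 0.9304). zgc:91909 was low and lay above in all EVL libraries, at 100.1, 76.4 and 50.8 against 34.8, 19.3 and 40.9 (log2 fold change 1.25; limma, adjusted p = 0.156). RAB35 (2 of 2), the relative of rab35b, lay below in all EVL libraries, at 119.9, 124 and 119.5 against 226, 194 and 151 (log2 fold change -0.63; limma, adjusted p = 0.249), the opposite side to rab35b, and a difference between these relatives was not tested.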
